A study of Mus musculus and Rattus norvegicus with 32 samples.

Results

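Genes that mark blood vessel endothelium or encode its growth factor receptors were followed through the hearts and cardiomyocytes of the METTL5 study. They were Kdr, Flt1, Tek, Tie1, Cdh5, Pecam1, Plvap, Vwf, Emcn and Egfl7. These 10 genes were taken by symbol from tables of 55487 mouse genes and 32883 rat genes. All 10 had a row in each of the 3 heart tables. The rat table held 9 of them by symbol, without Pecam1, and gave no symbol for 396 of its rows. The list was selected on the genotype log2 fold changes in these heart tables, so the values of those differences are a description, and their adjusted p-values only place each gene in the test over all genes.

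METTL5 is a methyltransferase of ribosomal RNA. RNA-seq was made from C57BL/6 mouse hearts and from neonatal rat ventricular cardiomyocytes (NRVMs) with 4 libraries per group. At 1 month of age, control hearts were compared with METTL5-KO hearts, in which the gene is lost in all tissues. At 3 months of age, control hearts were compared with METTL5-cKO hearts, in which Cre under the Myh6 (αMHC) promoter deletes floxed exons of Mettl5 in cardiomyocytes, so that the endothelial cells of these hearts keep the gene by design. The same 2 genotypes were compared 4 weeks after transverse aortic constriction (TAC), which loads the left ventricle with pressure. The labels give 3 months of age for these hearts too, and hearts called 3-month below are those without TAC. The NRVMs, from Sprague Dawley rats at postnatal day 2, were infected with adenovirus for human METTL5 (AdMETTL5) or GFP (AdGFP), and both groups received 20 μM of the hypertrophic agonist phenylephrine (PE) for 24 h. The labels number samples without saying how many animals or cultures they came from, so the p-values measure the spread between these samples.

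Kdr (VEGFR2) and Flt1 (VEGFR1) are receptors of vascular endothelial growth factor (VEGF), and KDR carries most of its growth signal while FLT1 binds the ligand tightly with weaker signaling. Tek (TIE2) is the receptor of the angiopoietins and Tie1 its partner receptor, and together they hold vessels in a quiet state. Capillary endothelial cells lie beside nearly every cardiomyocyte, and cardiomyocytes are a known source of VEGF in the heart.

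Total counts per library were 19899033 to 21804907 in the hearts and 14324700 to 18085339 in NRVMs. Levels are given as CPM, the counts relative to the TMM-scaled library size, with 1 scaling over the 24 heart libraries and another over the NRVMs. The whole-gene count of Mettl5 did not separate the genotypes, at 4.77 to 6.38 CPM in control and 5.54 to 7.21 in METTL5-KO hearts, 6.68 to 7.77 in control and 5.41 to 6.97 in METTL5-cKO hearts at 3 months, and 5.44 to 6.90 and 5.47 to 7.18 after TAC. These tables give whole genes and not the deleted exons, so this count does not check the deletion, and the groups are used here as labelled. Several libraries stood apart within their group. Control library 1 at 1 month had 764 CPM of the natriuretic peptide gene Nppa against 128 to 201 in the other controls, and METTL5-cKO TAC library 4 had 2156 CPM of Nppa against 5269 to 6019 in its group and 82.6 CPM of the fibrosis gene Postn against 509.9 to 769.

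Positions are given on GRCm38. Among the members, only Egfl7 shares exon sequence with other annotated genes, among them Mir126a on its own strand and Agpat2 on the opposite strand, and since the strandedness of the counting is not given in the sources used here, its count is less certain than the others. Per kilobase of merged exons, Cdh5 was the highest member in the 3-month control hearts, at 43.3 ± 7.01 CPM per kb (SD, n = 4). Pecam1 followed at 21.7 ± 3.71, Egfl7 at 19.1 ± 3.89, Tie1 at 18.8 ± 4.34 and Kdr at 15.3 ± 3.58 CPM per kb. Flt1 at 10.0 ± 1.46, Tek at 9.67 ± 2.66 and Emcn at 9.10 ± 3.06 CPM per kb came next, and Plvap at 3.44 ± 1.17 and Vwf at 1.92 ± 0.246 were lowest. The libraries of neighbours in this order overlapped except between Cdh5 and Pecam1, and between Emcn and Plvap.

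Kdr lay lower in METTL5-cKO hearts at 3 months and after TAC, and at the control level in METTL5-KO hearts at 1 month. Its gene lies on the minus strand of chromosome 5 from 75932827 to 75978458. At 1 month, the control libraries 1 to 4 held 142, 164, 145 and 209 CPM of Kdr and the METTL5-KO libraries 172, 172, 160.1 and 150.4. The METTL5-KO values all lay inside the control range, and the log2 fold change was -0.01 (standard error, SE, 0.140, adjusted p = 0.999). Unless DESeq2 is named, adjusted p-values are from edgeR (quasi-likelihood F-test, adjusted by the method of Benjamini and Hochberg over all genes tested).

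At 3 months, Kdr was at 102, 172, 158 and 122 CPM in control hearts and at 75.4, 85.6, 71.1 and 76.3 in METTL5-cKO hearts. Every METTL5-cKO heart lay below every control heart. The means were 138 ± 32.3 and 77.1 ± 6.13 CPM (SD, n = 4). The fitted log2 fold change was -0.84 (SE 0.161), or 0.558 times the control. In bulk tissue, fewer endothelial cells and less RNA of a gene per cell cannot be told apart. Kdr was the gene with the 37th smallest p of 16391 tested, and its adjusted p of 0.184 in edgeR missed the threshold of 0.05. DESeq2's Wald test gave a log2 fold change of -0.84 with an adjusted p of 0.000309, so whether Kdr is called at 3 months depended on the tool.

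After TAC, Kdr was at 96.1, 88.0, 94.0 and 83.4 CPM in control hearts and at 47.2, 51.8, 59.6 and 66.1 in METTL5-cKO hearts. The groups again did not overlap. In the fit, the change was -0.70 on the log2 scale (SE 0.111, adjusted p = 0.00953 in edgeR), and it stayed under the threshold with any 1 of the 8 libraries left out.

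The control TAC hearts also had less Kdr than the 3-month control hearts. The log2 difference was -0.62 (SE 0.144, adjusted p = 0.0636 in edgeR), with every control TAC heart below every 3-month control heart, as for 5.4% of all genes, and 0.256% of all genes passed the threshold. Between the METTL5-cKO groups, the log2 difference with TAC was -0.46 (SE 0.145, adjusted p = 0.0350). Of the 17597 genes tested in that comparison, 15.3% passed the threshold, with 7.1% of all genes lower, and Kdr was the only member that did, in 19 of 24 fits with 1 library left out. These comparisons share their libraries with the genotype comparisons above. TAC and the table a library came from cannot be told apart here, and neither can any difference in handling between those tables.

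Flt1 is the other VEGF receptor of the list, and in METTL5-cKO hearts it passed the threshold after TAC. Its gene lies on the minus strand of chromosome 5 from 147561604 to 147726011. At 1 month, Flt1 was at 205, 97.6, 121 and 154 CPM in control and 150.2, 103, 129.9 and 93.0 in METTL5-KO hearts. The log2 fold change of -0.28 (SE 0.242) became -0.05 without control library 1, the library with high Nppa. At 3 months, Flt1 was at 148, 117, 157 and 121 CPM in control and 106, 88.0, 157 and 129.6 in METTL5-cKO hearts, and these groups overlapped.

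After TAC, Flt1 was at 119, 138, 118 and 142 CPM in control and 85.6, 91.5, 85.7 and 109 in METTL5-cKO hearts, without overlap. Its log2 fold change was -0.49 (SE 0.106, adjusted p = 0.0207 in edgeR). The call held in 3 of the 8 fits with 1 library left out.

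Tek had 38.3, 44.7, 44.2 and 41.9 CPM in control TAC hearts and 26.8, 28.5, 30.2 and 31.7 in METTL5-cKO TAC hearts. It was the member with the smallest spread in this comparison and its groups did not overlap, with a log2 fold change of -0.54 (SE 0.0823, adjusted p = 0.00851 in edgeR, under the threshold with any 1 library left out). At 3 months, Tek was at 31.5, 47.0, 61.6 and 42.1 CPM in control and 27.0, 37.1, 33.0 and 49.0 in METTL5-cKO hearts, a log2 fold change of -0.31 (SE 0.224). At 1 month the log2 fold change of Tek was -0.04 (SE 0.130). Tek lies on the plus strand of chromosome 4 from 94739289 to 94874976.

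Tie1 lies on the minus strand of the same chromosome from 118471191 to 118490061. Tie1 was at 83.7, 103, 115 and 98.3 CPM in control TAC hearts and at 54.2, 68.1, 57.8 and 86.4 in METTL5-cKO TAC hearts. METTL5-cKO library 4, the library with low Nppa, reached into the control range. The log2 fold change was -0.60 (SE 0.154, adjusted p = 0.0357 in edgeR), and the call held in 2 of the 8 fits with 1 library left out. Tie1 had log2 fold changes of -0.44 (SE 0.175) at 3 months and -0.28 (SE 0.130) at 1 month, neither past the threshold.

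**Figure D1:**
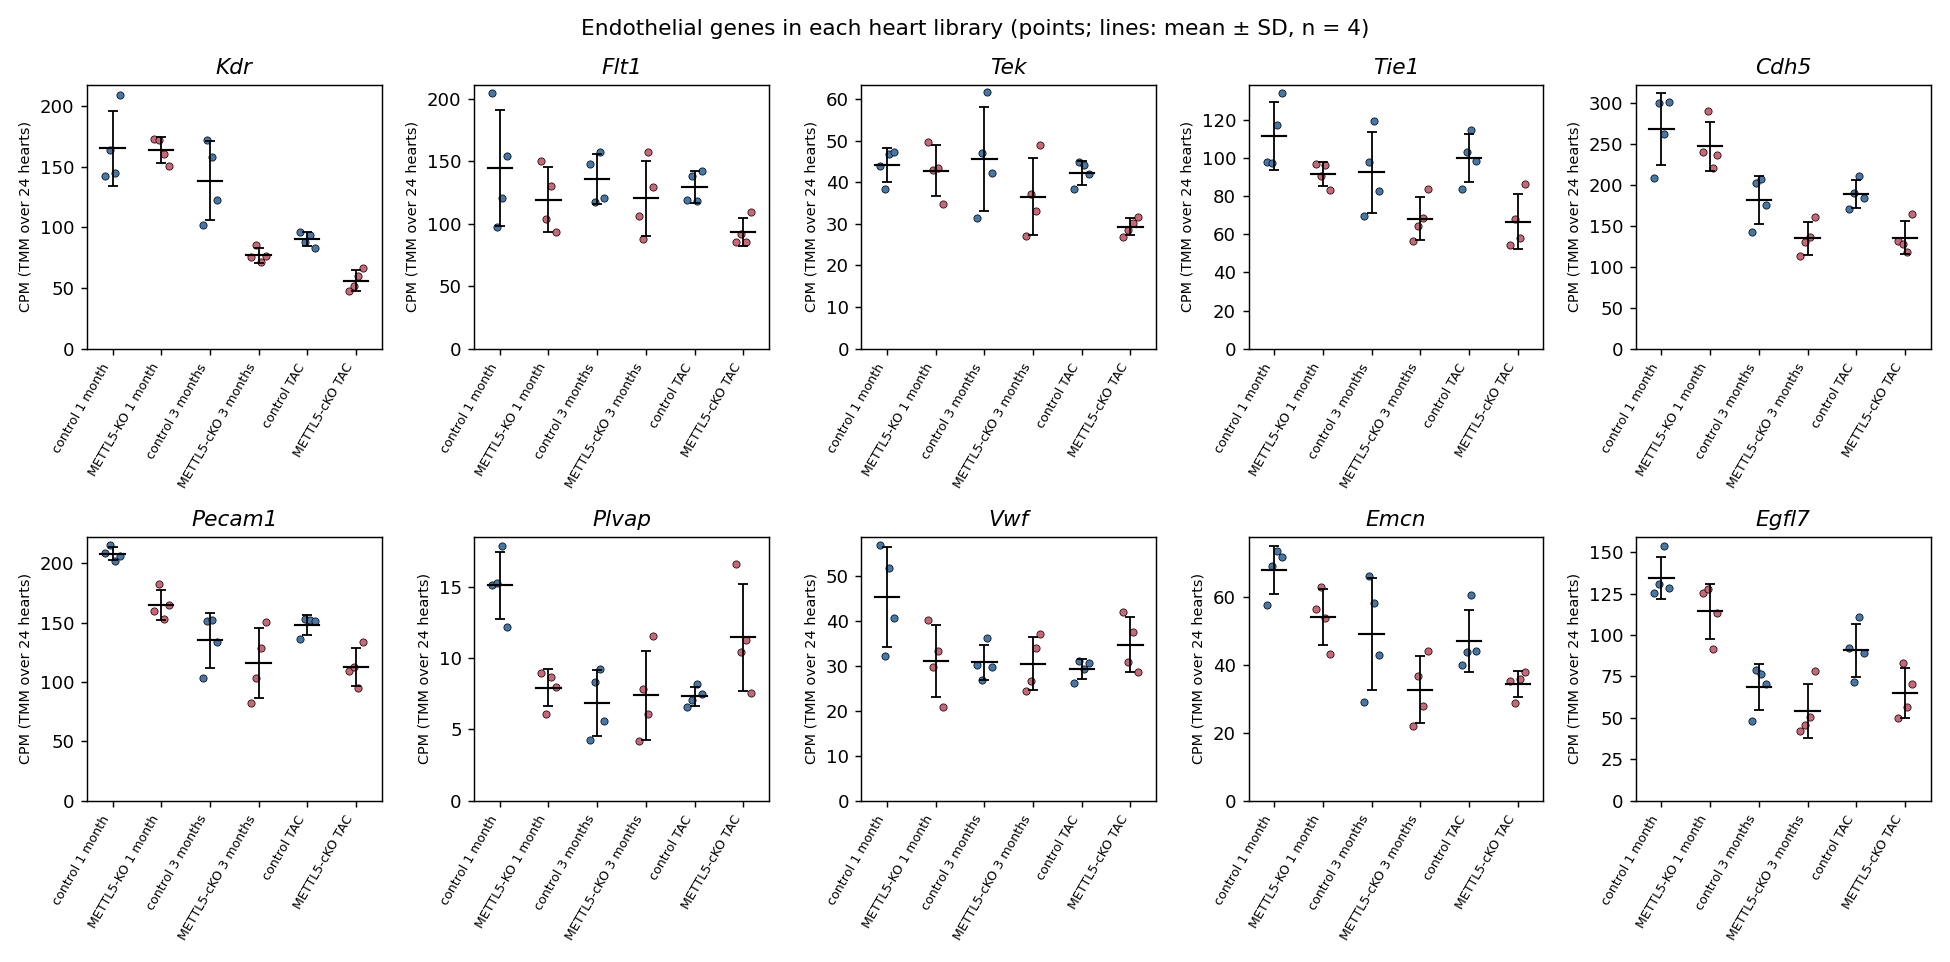
Level of each of the 10 genes in CPM (y axis, from 0) in every heart library of the 6 groups (x axis), with blue points for control and red points for knockout libraries and black lines for the mean ± SD (n = 4). In Kdr, every METTL5-cKO library lies below the control libraries of its own table at 3 months and after TAC, while the METTL5-cKO TAC libraries of Plvap range from 7.55 to 16.6 CPM.

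The sequences just upstream of the 4 receptor genes of the list are given. These genes lay lower in METTL5-cKO TAC hearts, as did Cdh5, Pecam1, Emcn and Egfl7. The windows are those of RefSeq on GRCm38.p6, each running from 250 bases before to 50 bases after a gene's start, and capitals mark GGAA, the core of ETS family binding sites, on either strand (TTCC on the opposite one). The windows are chr5:75978406-75978705 (minus strand) for Kdr, chr5:147725962-147726261 (minus) for Flt1, chr4:94739039-94739338 (plus) for Tek and chr4:118489800-118490099 (minus) for Tie1.
Kdr: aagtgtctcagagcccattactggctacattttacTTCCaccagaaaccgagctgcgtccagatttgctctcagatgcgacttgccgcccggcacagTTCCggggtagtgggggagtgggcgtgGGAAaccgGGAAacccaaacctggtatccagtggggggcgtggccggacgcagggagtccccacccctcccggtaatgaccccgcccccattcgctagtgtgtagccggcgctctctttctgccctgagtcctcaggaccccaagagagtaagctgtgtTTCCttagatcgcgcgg
Flt1: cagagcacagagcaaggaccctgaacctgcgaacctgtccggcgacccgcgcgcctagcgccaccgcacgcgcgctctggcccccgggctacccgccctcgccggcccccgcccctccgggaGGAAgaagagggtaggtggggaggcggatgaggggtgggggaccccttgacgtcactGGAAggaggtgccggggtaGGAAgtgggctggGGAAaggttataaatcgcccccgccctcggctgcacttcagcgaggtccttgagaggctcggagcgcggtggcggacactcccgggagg
Tek: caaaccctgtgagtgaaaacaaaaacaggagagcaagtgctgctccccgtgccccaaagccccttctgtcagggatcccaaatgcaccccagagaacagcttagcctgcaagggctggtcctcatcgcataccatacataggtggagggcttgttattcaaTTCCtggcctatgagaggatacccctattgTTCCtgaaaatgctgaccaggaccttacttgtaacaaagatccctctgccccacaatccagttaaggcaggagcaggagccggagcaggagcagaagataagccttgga
Tie1: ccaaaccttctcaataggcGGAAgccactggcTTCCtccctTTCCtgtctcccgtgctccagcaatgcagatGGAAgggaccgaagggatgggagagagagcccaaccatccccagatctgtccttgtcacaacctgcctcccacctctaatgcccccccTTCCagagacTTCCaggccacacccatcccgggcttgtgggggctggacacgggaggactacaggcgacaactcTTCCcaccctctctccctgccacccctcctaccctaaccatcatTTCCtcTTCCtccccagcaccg

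The window of Tie1 held 9 matches to GGAA, a number that 1.59% of all 32851 windows reach, that of Kdr 5, that of Flt1 4 and that of Tek 2, against a median of 3 over all windows. At least 1 GGAA was found in 95.98% of all windows, so its presence sets none of these genes apart. The longer CAGGAA, found in 30.55% of all windows, occurred in 5 of the 8 windows of the members (6 genes), among them Tek with 2 matches and Tie1 with 1. CCGGAA, in 14.9% of all windows, occurred once in Kdr. The motif AGATAA of GATA factors, in 11.18% of all windows, occurred once in Tek. The letters TATAAA, in 13.62%, occurred once in Flt1. The forkhead motif GTAAACA, in 3.65% of all windows, occurred in none of the 8. Both strands were searched for each motif, matches may overlap, and a match is a description of letters. Cdh5, Pecam1, Plvap and Vwf had no entry in the table.

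Cdh5, the cadherin of endothelial junctions, was at 143, 202, 207 and 175 CPM in 3-month control hearts and 113, 130.02, 137 and 162 in METTL5-cKO hearts. After TAC it was at 170.5, 191, 211 and 185 CPM in control and 132, 128, 119 and 165 in METTL5-cKO hearts. The TAC groups did not overlap and the 3-month groups did. The log2 fold changes were -0.42 (SE 0.145, adjusted p = 0.557) at 3 months and -0.49 (SE 0.113, adjusted p = 0.0257, held in 2 of 8 fits with 1 library left out) after TAC, and -0.12 (SE 0.147) at 1 month. The gene lies on chromosome 8 from 104101625 to 104144511.

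Pecam1 (CD31), an adhesion molecule of endothelial cells and platelets, was the member with the tightest control group at 1 month. It was at 209, 216, 202 and 206 CPM in those controls and at 159.9, 183, 153 and 165 in METTL5-KO hearts, without overlap. The log2 fold change was -0.33 (SE 0.0964, adjusted p = 0.973 in edgeR and 0.0372 in DESeq2). After TAC, Pecam1 was at 136, 153, 152 and 151 CPM in control and 109, 113, 95.2 and 134 in METTL5-cKO hearts, with a log2 fold change of -0.41 (SE 0.105, adjusted p = 0.0357, held in 2 of 8 fits). At 3 months the log2 fold change was -0.22 (SE 0.192) and the groups overlapped. It lies on chromosome 11 from 106654217 to 106750628.

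Emcn, a sialomucin of capillary and venous endothelium, and Egfl7, a secreted protein of endothelial cells, lay lower on average in all 3 comparisons without passing the threshold in edgeR. Emcn was at 40.1, 43.8, 60.7 and 44.1 CPM in control TAC and 35.2, 28.8, 35.96 and 37.9 in METTL5-cKO TAC hearts. These groups did not overlap, and the log2 fold change of -0.47 (SE 0.138) had an adjusted p of 0.0546 in edgeR and 0.0203 in DESeq2. At 3 months Emcn had a log2 fold change of -0.58 (SE 0.278) with overlapping groups of 29.1 to 66.4 and 21.98 to 44.3 CPM. Egfl7 had log2 fold changes of -0.23 (SE 0.132), -0.33 (SE 0.216) and -0.50 (SE 0.175, adjusted p = 0.0903) at 1 month, at 3 months and after TAC, and its groups overlapped in each.

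Plvap and Vwf were the members with log2 fold changes above 0 after TAC, while at 1 month they had the lowest log2 fold changes of the 10. Plvap forms the diaphragms of fenestrae and caveolae and is low in normal capillaries of the heart, and Vwf, the von Willebrand factor, is stored for clotting mostly in larger vessels. Plvap was at 15.2, 15.3, 17.9 and 12.2 CPM in 1-month control hearts and at 8.96, 6.07, 8.64 and 7.996 in METTL5-KO hearts. The groups did not overlap, and the METTL5-KO mean was 0.525 times the control mean in the fit, with a log2 fold change of -0.93 (SE 0.156). Plvap had the 5th smallest p of the 16329 genes tested at 1 month, with an adjusted p of 0.587 in edgeR and 0.00114 in DESeq2.

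At 3 months, Plvap was at 4.23, 8.29, 9.22 and 5.62 CPM in control and 4.19, 7.81, 6.09 and 11.5 in METTL5-cKO hearts, and the groups overlapped fully. After TAC it was at 6.60, 7.08, 8.17 and 7.46 CPM in control and 16.6, 10.4, 11.2 and 7.55 in METTL5-cKO hearts. The first 3 METTL5-cKO TAC libraries were above all control libraries and library 4 was within them. The log2 fold change was 0.63 (SE 0.205, adjusted p = 0.0712 in edgeR and 0.0348 in DESeq2). It was 0.79 (adjusted p = 0.0101) without METTL5-cKO library 4 and 0.40 without METTL5-cKO library 1. Of the 8 fits with 1 library left out, 1 passed the threshold. Plvap lies on chromosome 8 from 71497765 to 71511752 and its libraries after TAC held 138 to 386 counts, the lowest of the members.

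Vwf was at 57.1, 32.2, 51.8 and 40.6 CPM in 1-month control and 40.2, 29.8, 33.4 and 21.0 in METTL5-KO hearts. After TAC it was at 26.3, 31.2, 29.3 and 30.8 CPM in control and 42.0, 30.8, 37.6 and 28.7 in METTL5-cKO hearts. The groups overlapped in both. The log2 fold changes were -0.55 (SE 0.231), -0.01 (SE 0.148) and 0.23 (SE 0.122, adjusted p = 0.240) at 1 month, at 3 months and after TAC.

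**Figure D2:**
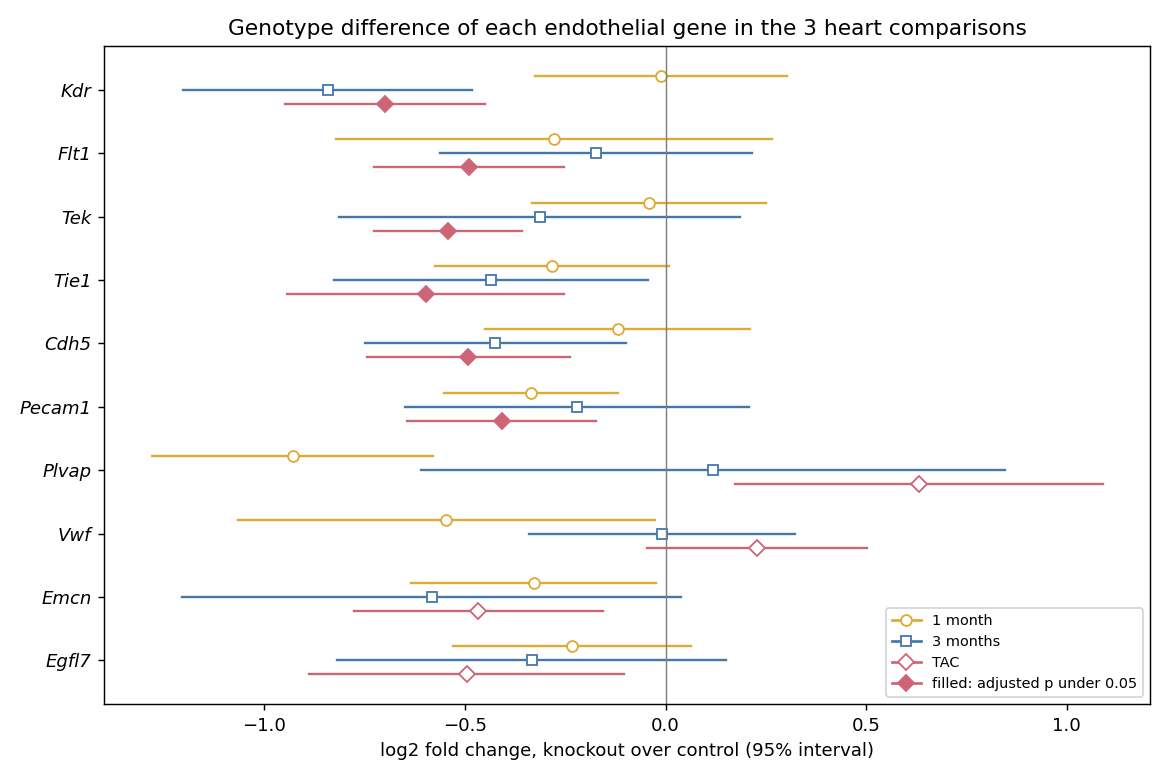
Log2 fold change of knockout over control hearts (x axis) for the 10 genes (rows) at 1 month (circles), at 3 months (squares) and after TAC (diamonds), with 95% intervals from edgeR and filled symbols where the adjusted p is under 0.05. Kdr, Flt1, Tek, Tie1, Cdh5 and Pecam1 are filled after TAC, and Plvap goes from -0.93 at 1 month to 0.63 after TAC.

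Over the 10 members, the median log2 fold change was -0.28 at 1 month, -0.32 at 3 months and -0.49 after TAC, against -0.0067, 0.00071 and -0.0035 over all genes tested. All 10 lay below 0 at 1 month, 9 at 3 months and 8 after TAC, where 51.4%, 49.7% and 50.6% of all genes did. No member passed the threshold at 1 month, where 0.00612% of 16329 genes did, or at 3 months, where 0.0732% of 16391 did. At an unadjusted p under 0.05 in edgeR, 4 members were lower at 1 month and 3 at 3 months, where 2.46% and 3.43% of all genes were. DESeq2 called 2 members at 1 month (Pecam1 and Plvap) and 1 at 3 months (Kdr). The share of all genes that DESeq2 called is not given here, and the edgeR shares are no scale for its calls. After TAC, 6 members were lower past the threshold, beside 6.1% of all 16340 genes tested, and none also had an absolute log2 fold change over 1, while 2.9% of all genes did. Of these 6, Kdr and Tek were called with any 1 library left out, and the calls of the other 4 were lost in some of these fits. Their log2 fold changes there ran from -0.57 to -0.44 for Flt1 and from -0.59 to -0.43 for Cdh5. For Pecam1 they ran from -0.50 to -0.33 and for Tie1 from -0.75 to -0.51. In the fits without control TAC library 2 or 4 or METTL5-cKO TAC library 1, 2 or 3, Kdr and Tek were the 2 members called. Without control library 3, 3 members were lower, and without METTL5-cKO library 4, 7 were lower and 1, Plvap, was higher. The groups did not overlap for 3 members at 1 month (all lower, beside 1.56% of all genes), for 1 at 3 months (2.11%) and for 6 after TAC (8.51%). These shares of all genes are given for scale, since the members were chosen with these differences known.

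The genotype differences of the 3 heart tables were compared by contrasts in 1 fit over the 24 heart libraries and 17597 genes. Between TAC and 3 months, no member differed past the threshold, where 0.017% of all genes did, and at an unadjusted p under 0.05 no member differed either, where 9.42% did. The log2 difference for Kdr was 0.16 with a 95% interval of -0.26 to 0.58, for Cdh5 -0.05 (-0.47 to 0.37) and for Tek -0.21 (-0.70 to 0.28). These intervals do not show that the changes were alike. Between 1 and 3 months, no gene of any kind passed the threshold in edgeR, and 815 of 17597 (4.63%) had an unadjusted p under 0.05. Kdr was the gene with the 16th smallest p there, with a log2 difference of 0.83 (SE 0.203, adjusted p = 0.546 in edgeR and 0.0631 in DESeq2).

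Between TAC and 1 month, Plvap differed past the threshold, where 1.72% of all genes did. Its log2 difference was 1.58 (SE 0.374, adjusted p = 0.0335 in edgeR). The adjusted p ranged from 0.00369 to 0.0589 over 5 other ways of scaling, filtering and testing, and it was under 0.05 in 13 of the 24 fits with 1 library left out. The log2 difference of Kdr was -0.67 (SE 0.204, adjusted p = 0.101) and that of Vwf 0.79 (SE 0.266, adjusted p = 0.144). The deletion at 1 month is in all tissues and the other is in cardiomyocytes, so age, TAC and the kind of deletion cannot be told apart in these contrasts.

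Ratios of counts within a library are free of the scaling between libraries, and they were added after the values had been seen. They use the same counts as the fold changes and give no separate support, and only some of the ratios computed are shown. The ratio of Kdr to Cdh5 was 0.697 to 0.852 in 3-month control and 0.472 to 0.668 in METTL5-cKO hearts, without overlap. After TAC it was 0.446 to 0.564 in control and 0.358 to 0.502 in METTL5-cKO hearts, with overlap. At 1 month it was 0.544 to 0.693 in control and 0.590 to 0.724 in METTL5-KO hearts. The 3-month control group thus had the highest range of the 3 control groups, above all 1-month and TAC controls, and the 3-month METTL5-cKO range overlapped that of the 1-month controls. Relative to Flt1, Kdr overlapped at 3 months, at 0.688 to 1.47 in control and 0.452 to 0.973 in METTL5-cKO hearts. It also overlapped after TAC, at 0.587 to 0.808 and 0.552 to 0.696. Tie1 to Cdh5 differed little, with means of 0.505 and 0.503 at 3 months and 0.527 and 0.488 after TAC in control and METTL5-cKO hearts, and Tek to Cdh5 had means of 0.224 and 0.218 after TAC.

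The ratio of Plvap to Cdh5 was 0.0371 to 0.0403 in control TAC and 0.0459 to 0.126 in METTL5-cKO TAC hearts, and that of Vwf to Cdh5 was 0.139 to 0.166 and 0.174 to 0.319. Neither overlapped, with library 4 the lowest METTL5-cKO TAC value in both. Plvap and Vwf had log2 fold changes above 0 after TAC and Cdh5 below 0, so the ratios restate those differences. The share of all genes whose ratio to Cdh5 separates these groups is not given here. At 1 month the ratio of Plvap to Cdh5 was 0.0403 to 0.0726 in control and 0.0208 to 0.0391 in METTL5-KO hearts.

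**Figure D3:**
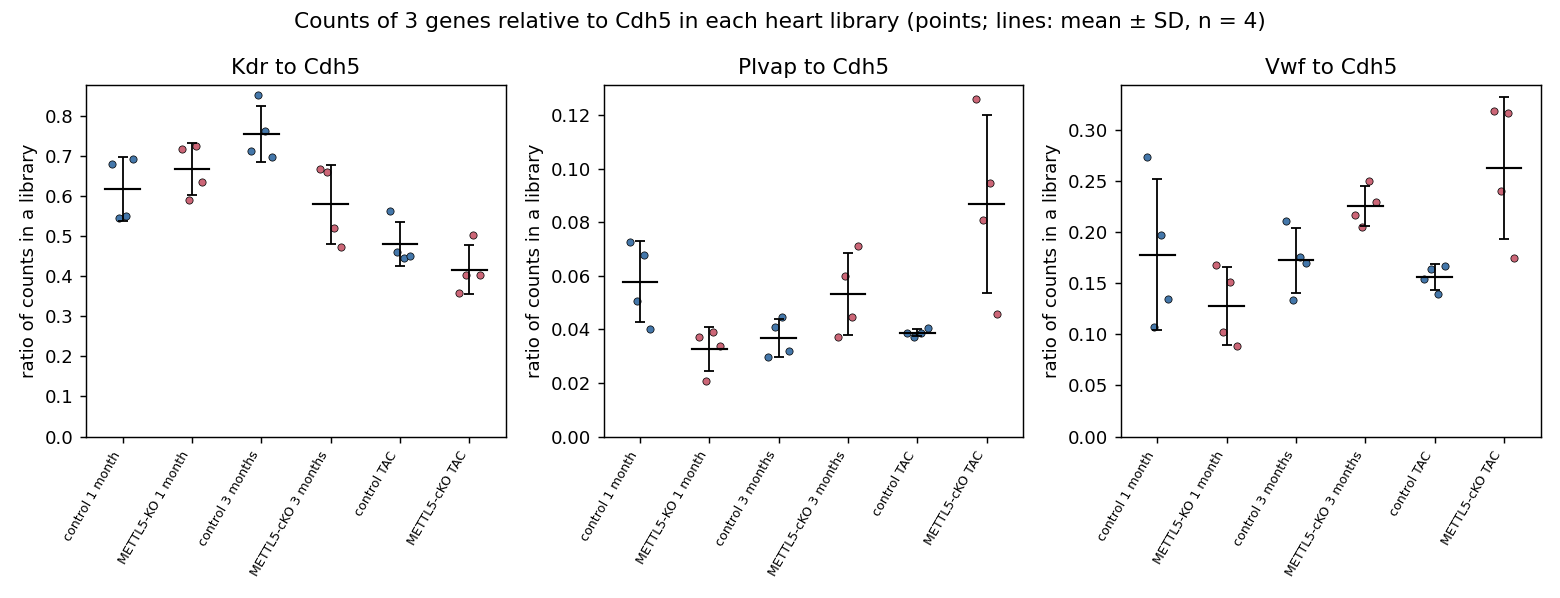
Count of Kdr, Plvap and Vwf divided by the count of Cdh5 in the same library (y axes, from 0) in the 6 heart groups (x axis), with points for libraries and black lines for the mean ± SD (n = 4). Kdr to Cdh5 is lowest in METTL5-cKO TAC hearts, with a mean of 0.416, where Plvap to Cdh5 is highest, with a mean of 0.0869.

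Within groups the members varied together to different degrees. After the mean of each group had been removed, the median Pearson correlation over the 45 pairs was 0.52 across the 24 heart libraries, and 39 pairs were above 0. The closest pairs were Tek with Tie1 (0.82), Tek with Emcn (0.81) and Cdh5 with Pecam1 (0.80). Flt1 and Vwf had their highest correlation with each other (0.65). Flt1 ranged from -0.14 with Cdh5 to 0.32 with Tie1 among the other genes, and Vwf from -0.22 with Kdr to 0.52 with Tek. The median over pairs was 0.78 in the 3-month libraries alone, 0.26 in the TAC libraries and 0.12 in the 1-month libraries.

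**Figure D4:**
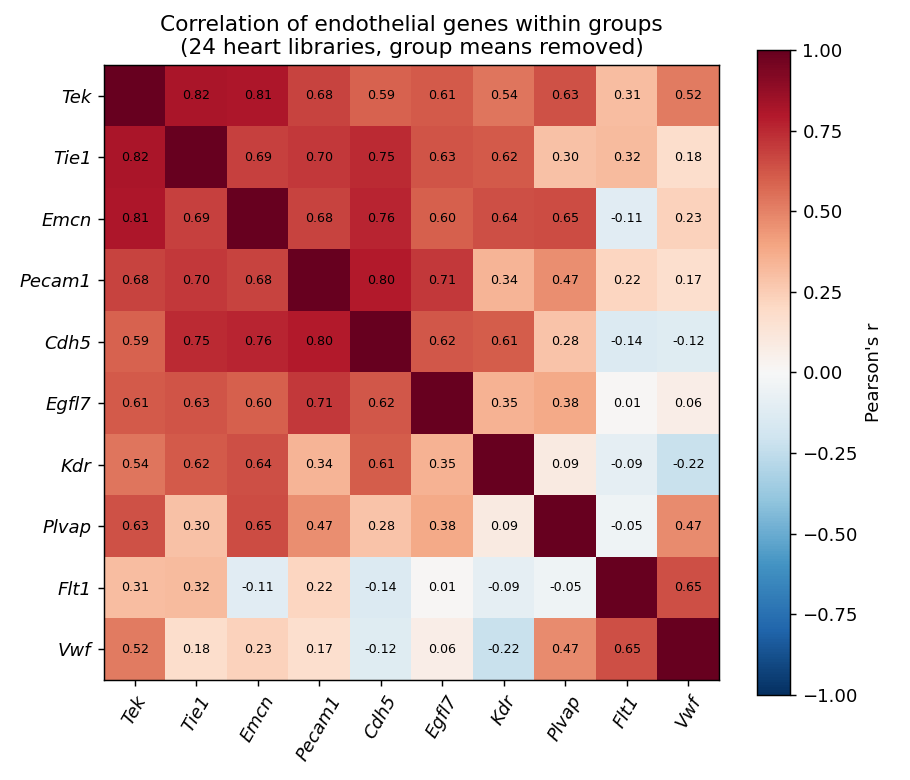
Pearson's r between each pair of the 10 genes (rows and columns) over 24 heart libraries after removal of the group means, from blue (negative) to red (positive). Tek, Tie1, Emcn, Pecam1, Cdh5, Egfl7 and Kdr form a block of positive values from 0.34 to 0.82, and Flt1 and Vwf share their highest value of 0.65.

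The libraries also differed in how the levels of all genes depended on exon length. The Spearman correlation of a library's deviation from the mean heart with merged exon length, over 17565 genes, ran from -0.24 in METTL5-cKO TAC library 4 to 0.26 in 3-month control library 1. In that control library and in METTL5-cKO library 1 of the same table (0.24), 8 of the 10 members were the lowest of their group, and in 3-month METTL5-cKO library 4 (-0.18), 8 were the highest. In METTL5-cKO TAC library 4, 7 were the highest, but in METTL5-KO library 4 at 1 month, with -0.11, 6 were the lowest. Within groups, this length measure had a Pearson correlation of -0.82 with Pecam1, -0.68 with Cdh5, -0.34 with Kdr, 0.07 with Flt1 and 0.10 with Vwf over the 24 libraries. Flt1 and Vwf have the longest merged exons of the members, 13504 and 16064 bases. The length measure was -0.23 to -0.07 in control TAC and -0.24 to 0.04 in METTL5-cKO TAC libraries, and -0.11 to 0.26 and -0.18 to 0.24 at 3 months. Its part in the results was not tested.

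By the same removal of group means, the genes most like the mean of the 10 members, each scaled to unit SD, were Elk3 (Pearson 0.91), an ETS family transcription factor of endothelium, Npr1 (0.91), the receptor of atrial natriuretic peptide, Gm5425 (0.89), Gm5257 (0.89) and Amigo2 (0.88), over 24 libraries. Gm5257 averaged only 0.65 CPM. The mean of the members ran from -1.56 to 1.48 in the 3-month libraries and from -0.72 to 0.61 in the others, so the 3-month libraries weigh most in these correlations. After TAC, Npr1 fell in METTL5-cKO hearts, by a log2 fold change of -0.65 (adjusted p = 0.0291 in edgeR), and Elk3 had -0.29 (adjusted p = 0.0658).

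Genes that act with the receptors were read from lists, beside which 6.1% of all genes tested after TAC were lower past the threshold and 6.57% higher. Of 11 ligands, co-receptors and modulators of VEGF and angiopoietin signaling that were tested after TAC, 2 were lower past the threshold and none higher, with a median log2 fold change of -0.39. Nrp2, a co-receptor of VEGF, had -0.57 (SE 0.0759, adjusted p = 0.00621), and Angpt1, the ligand of TEK made mostly outside the endothelium, had -0.90 (SE 0.167, adjusted p = 0.0143). Vegfb had -0.44 (SE 0.130, adjusted p = 0.0526). Angpt1 also fell between the METTL5-cKO groups with TAC, by a log2 difference of -1.33 (adjusted p = 2.79e-05), and had -0.65 (adjusted p = 0.0908) between the control groups. Of 15 endothelial transcription factors, 5 were lower, with a median of -0.40, among them Sox7 at -0.87 (adjusted p = 0.0168), Tal1 at -0.68 (adjusted p = 0.0246) and the ETS factor Fli1 at -0.38 (adjusted p = 0.0274). Of 11 genes of Notch and ephrin signaling, which shapes arteries and sprouting, 3 were lower, namely Dll4 at -0.49 (adjusted p = 0.0147), Jag2 at -0.54 (adjusted p = 0.0203) and Notch1 at -0.53 (adjusted p = 0.0279), with a median of -0.44.

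Among 22 other endothelial markers, 5 were lower after TAC (6.1% of all genes) with a median of -0.39. The 4 with values above 0, named after their values were seen, were Cldn5 at 0.06, Ramp2 at 0.07, Cd34 at 0.07 and Tspan12 at 0.18 (adjusted p = 0.0997), and none passed. The 5 lower genes were led by Podxl at -0.59 (adjusted p = 0.00744), Cyyr1 at -0.67 (adjusted p = 0.00785) and She at -0.59 (adjusted p = 0.0107). Of 7 capillary markers, all below 0, 1 was lower past the threshold, the fatty acid binding protein Fabp4 at -0.54 (adjusted p = 0.0317), while Car4 at -0.95 (adjusted p = 0.0742) and Aqp1 at -0.51 (adjusted p = 0.0602) were not. Markers of other vessels differed. Of 6 lymphatic markers, 2 were higher, Pdpn at 1.11 (adjusted p = 0.0223) and Mmrn1 at 0.63 (adjusted p = 0.0420), and Ccl21a had 0.54 (adjusted p = 0.0991). In AdGFP NRVMs, Pdpn averaged 59.9 CPM and Mmrn1 0.325 CPM, and which cells gave the Pdpn of the hearts was not tested. Of 6 arterial markers, Fbln5, an elastic fibre protein that other cells make too, was higher at 1.23 (adjusted p = 0.0257), Hey1 had -0.77 (adjusted p = 0.0667) and Stmn2 -0.33 (adjusted p = 0.137). Of 2 venous markers tested, Nr2f2 was lower at -0.31 (adjusted p = 0.0462) and Vcam1 had 0.40 (adjusted p = 0.109). None of 4 endocardial markers passed in edgeR, and Npr3 was at 0.24, Cytl1 at -0.60 and Cdh11 at 0.27. Of these 4, 1 had an unadjusted p under 0.05, a cutoff whose share of all genes after TAC is not given here. No gene of these lists passed the threshold at 1 or 3 months in edgeR. At an unadjusted p under 0.05, 1 of the 11 VEGF and angiopoietin genes was lower at 1 month and 6 at 3 months. Of the 22 other endothelial markers, 3 and 5 were, where 2.46% and 3.43% of all genes were lower. For the 15 transcription factors these counts were 0 and 3, and for the 11 Notch and ephrin genes 1 and 2. They were 1 and 0 for the 7 capillary, 2 and 0 for the 4 endocardial and 1 and 0 for the 6 lymphatic markers. For arterial and venous markers they were 0 and 0. At 3 months, 4 capillary markers lay above 0 and 3 below, with a median of 0.01. All 4 endocardial and 5 of 6 lymphatic markers lay above 0, and 5 of 6 arterial markers below.

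Markers of other cell types moved with the genotype after TAC. The summed level of 7 fibroblast markers was 530.3 to 688 CPM in control TAC and 814 to 2162 in METTL5-cKO TAC hearts, and 6 of the 7 rose past the threshold, where 6.57% of all genes did, Col1a1 by 1.71 (adjusted p = 0.0194), Col1a2 by 1.65 (adjusted p = 0.0141) and Col3a1 by 1.89 on the log2 scale (adjusted p = 0.0146). The sum of 8 macrophage markers was 239 to 319.8 and 328 to 425 CPM, and 2 rose, Adgre1 by 0.71 (adjusted p = 0.00953) and Lyz2 by 0.48 (adjusted p = 0.0232), with C1qc at 0.43 (adjusted p = 0.0772). The sum of 9 cardiomyocyte markers was 36058 to 40309 and 26431 to 33419 CPM, and Tnni3 and Myl2 fell, by 0.84 and 0.75 on the log2 scale (adjusted p = 0.0155 and 0.0182), with Myh6 at -0.48 (adjusted p = 0.0588).

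At 3 months, no gene of the fibroblast, macrophage and smooth muscle lists passed the threshold in edgeR, but several differed beside Kdr at an unadjusted p under 0.05, where 7.05% of all genes did in either direction. All 7 fibroblast markers lay higher in METTL5-cKO hearts, 5 of them at that p, with a median of 0.52 and a sum of 393 to 528 CPM in control and 489 to 707 in METTL5-cKO hearts. All 8 macrophage markers lay higher, 5 at that p, with a median of 0.36 and sums of 159.7 to 212 and 197 to 280.2 CPM. All 4 smooth muscle markers lay lower, 3 at that p, with a median of -0.57 and sums of 80.01 to 114 and 57.7 to 94.2 CPM. The part of these cell types in the 3-month values of the 10 genes was not tested.

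Among the mural and blood cell lists, only pericyte markers held genes past the threshold after TAC. Of 6 pericyte markers, Kcnj8 was lower at -0.62 (adjusted p = 0.0130) and Cspg4 higher at 0.49 (adjusted p = 0.0264), with Rgs5 at -0.30 (adjusted p = 0.0599), and the sum was 630.4 to 703 CPM in control TAC and 541 to 638 in METTL5-cKO TAC hearts. No gene passed among 4 smooth muscle markers (Myh11 at -0.20, Tagln at 0.38 and Cnn1 at 0.36), 4 markers of platelets and megakaryocytes, which share Pecam1 and Vwf with endothelium (Ppbp at -0.65, Itga2b at -0.57 and Gp1bb at 1.00, sum 8.71 to 11.8 and 8.59 to 10.9 CPM), and 5 of red blood cells (Hba-a2 at -0.33, Hbb-bt at -0.36 and Alas2 at -0.41, sum 1118 to 1503 and 947 to 1263 CPM). Hba-a2 and Hbb-bt have near-identical copies that can share reads, so their values are uncertain. At an unadjusted p under 0.05 in edgeR, 1, 2 and all 5 of these lists' genes differed, with the 5 red blood cell genes all lower. The share of all genes at that p after TAC is not given here, so these counts have no scale to be read against. The part of these cell types in the levels of the 10 genes was not tested.

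In NRVMs, plated cardiomyocytes from which fibroblasts are removed by pre-plating, the members were measured at low levels. Fibroblast markers remained high, with a sum over 6 genes of 10680 to 11229 CPM with AdGFP and 8528 to 9414 with AdMETTL5. The 9 genes of the rat table summed to 65.2 to 68.9 CPM with AdGFP and 78.7 to 83.3 with AdMETTL5, against 553 to 1306 CPM over the 10 genes in the heart libraries. Emcn was at 0 counts in 7 of 8 libraries and at 5 counts in AdGFP library 4, and 8 members were tested. Cdh5, Tie1 and Vwf had 33 to 52, 37 to 59 and 24 to 31 counts in the AdGFP libraries. Kdr, Flt1 and Tek were not low in the same proportion. The ratio of Kdr to Cdh5 was 5.60 to 8.73 with AdGFP and 9.14 to 14.2 with AdMETTL5, while it was 0.358 to 0.852 in all heart libraries, which are of another species.

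Kdr was at 18.2, 20.1, 17.0 and 16.7 CPM with AdGFP and at 31.1, 35.2, 35.7 and 28.5 with AdMETTL5. All AdMETTL5 libraries lay above all AdGFP libraries, with a log2 fold change of 0.86 (SE 0.0858, adjusted p = 6.13e-06 in edgeR). Plvap was at 5.51, 4.99, 4.78 and 4.59 CPM with AdGFP and 2.90, 2.95, 2.56 and 2.22 with AdMETTL5. Its groups did not overlap, and its log2 fold change was -0.90 (SE 0.127, adjusted p = 8.91e-05). Flt1 rose in AdMETTL5 cultures, with means of 15.8 ± 0.466 and 18.3 ± 1.49 CPM (SD, n = 4) and a log2 fold change of 0.21 (SE 0.0712, adjusted p = 0.0256), in a call that held in 4 of 8 fits with 1 library left out.

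Beside these 3 of 8 members, 52.8% of the 15041 genes tested in NRVMs passed the threshold, so calls were common there. The groups did not overlap for Kdr, Plvap and Vwf, and for 48.4% of all genes. Cdh5 at 0.23, Egfl7 at 0.18, Tek at -0.13, Tie1 at -0.15 and Vwf at -0.29 did not pass. Rat Mettl5 was at 17.0 ± 0.773 CPM in AdGFP and 21.2 ± 1.76 CPM in AdMETTL5 cultures (SD, n = 4), but the virus carries the human coding sequence, so this row does not measure the overexpression. Of 12 ligands, co-receptors and modulators, 5 were lower and 4 higher, among them Vegfa at -0.21 (adjusted p = 0.00485), Nrp2 at 0.31 (adjusted p = 0.000667) and Angpt1 at 0.68 (adjusted p = 0.00170), and Vegfb at -0.10 did not pass. All 8 cardiomyocyte markers tested fell, and their sum was 18284 to 20527 CPM with AdGFP and 8495 to 9222 with AdMETTL5.

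**Figure D5:**
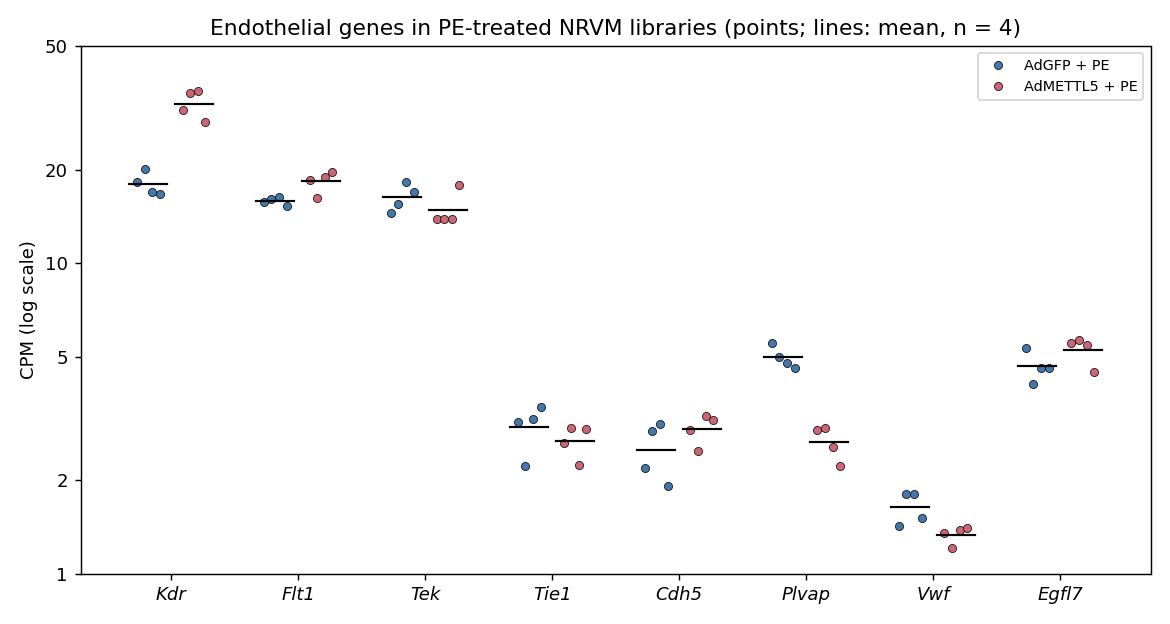
Level of 8 members in CPM on a log scale (y axis) in the 4 AdGFP and 4 AdMETTL5 libraries of PE-treated NRVMs (points), with lines for the means. Kdr rises from 17.996 to 32.6 CPM and Plvap falls from 4.97 to 2.66 CPM, while Cdh5, Tie1 and Vwf stay between 1.21 and 3.43 CPM.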

How the data were processed

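RNA-seq of 24 mouse hearts and 8 NRVM cultures was analysed. The authors aligned reads with HISAT2 2.0.4 and quantified genes with StringTie 2.1.4 on GRCm38 or Rnor_6.0, and deposited estimated counts per gene as whole numbers, so rounding changed none. Plain counts had been assumed in the design, and the same test applies. Groups came from the sample labels, and columns were matched to them by name. Where a column name gave a group but no sample number of the labels, the library number here is only a name.

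Genes were kept by edgeR's filterByExpr (minimum count 10, total 15). Each table was scaled by TMM and tested with edgeR 4.0.16 (R 4.3.3) by its quasi-likelihood test, with Benjamini-Hochberg adjustment over all genes and a threshold of 0.05. Differences between tables came from 1 fit of the 24 heart libraries with joint scaling, which also gave the heart CPM values. DESeq2 1.42.0, other scalings, filters and thresholds, and leaving out each library were alternatives. The test was also run on simulated counts, and the outcome of that run is not given here.

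The members and the gene lists were chosen with earlier results of these data known. Named were the members, the 3 genes of each list with the smallest adjusted p after TAC, and the 5 genes most like the members. Vegfa in NRVMs was added after its value was seen. Promoter windows came from RefSeq. Of 55487 mouse gene IDs, 99.38% had an exon length. No 2 libraries of a group agreed within sampling noise, so none was counted as a duplicate.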

Additional observations from a re-analysis of the deposited data

Results flagged for a closer look

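Of 76 groups of 4 libraries examined, 3 had a library far from the others by Dixon's test, which flags about 1 in 20 by chance (5%). Pecam1 was at 136 CPM in control TAC library 1, where the nearest of the others was at 151. Tek was at 17.8 CPM in AdMETTL5 library 4, where the nearest was at 13.9, and Egfl7 was at 4.45 CPM in the same library, where the nearest was at 5.44.

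The genotype difference of Plvap differed between the hearts after TAC and those at 1 month by 1.58 on the log2 scale, tested as a contrast in edgeR (adjusted p = 0.0335). It was lower in METTL5-KO hearts in 4 of 4 libraries and above all controls in 3 of 4 METTL5-cKO TAC libraries.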

How the results depend on the processing

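With DESeq2's Wald test, 2 members were called at 1 month, 1 at 3 months, 2 in the contrast of TAC with 1 month and 1 between the control groups (TAC against 3 months), where edgeR called 0, 0, 1 and 0. The shares of all genes that DESeq2 called are not given here, so its counts have no scale. At an unadjusted p under 0.05, 4 members were called at 1 month and 3 at 3 months, all lower, where 2.46% and 3.43% of all genes were. In the contrast of 1 with 3 months 2 were called, beside 4.63% of all genes. That p also gave 3 in the contrast of TAC with 1 month, 2 between the control groups and 2 between the METTL5-cKO groups. The share of all genes at that p is not given for those last comparisons, where 1.72%, 0.256% and 15.3% passed the adjusted threshold. With an absolute log2 fold change over 1 also required, 0 were left after TAC, in NRVMs and between the METTL5-cKO groups. Without the filter, 0 were called in the contrast of TAC with 1 month and between the METTL5-cKO groups, and with library size alone 0 in the latter. In NRVMs, the median log2 fold change of 0.02 became -0.15 with DESeq2, 0.15 with library size alone and -0.14 without the filter, and the cause was not tested. The median correlation of member pairs was 0.12 in the 1-month table alone. Some values near 0 changed sign. Kdr at 1 month became 0.039 with library size alone, 0.0023 without the filter and 0.0043 with the replicate block, Tek at 1 month became 0.0089 and Vwf at 3 months 0.038 with library size alone.

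With 1 library left out, the count of members called was 2 to 8 after TAC, 2 to 3 in NRVMs, 0 to 2 in the contrast of TAC with 1 month, 0 to 1 between the control groups and 0 to 2 between the METTL5-cKO groups. The log2 fold change ranged from -0.072 to 0.13 for Kdr and -0.13 to 0.049 for Tek at 1 month, and from -0.18 to 0.31 for Plvap and -0.12 to 0.081 for Vwf at 3 months.

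Replicate numbers could be used as a block only at 1 month, where the labels number the columns. Same-numbered libraries had correlations of their deviations of 0.25, 0.11, -0.08 and 0.08, so the numbers were not taken as pairs. With the replicate block, 0 members were called and the median log2 fold change was -0.26. The low counts of Plvap in hearts and of Cdh5, Tie1 and Vwf in NRVMs limit the precision of those genes, and 4 libraries per group limit all.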
